A study of Mus musculus with 20 samples.

Results

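The mitochondrial carriers and the subunits of the protein import machinery were taken as all genes on the array whose symbol starts with Slc25a, Timm or Tomm, apart from Slc25a11, Slc25a12 and Slc25a13. Of the 12393 genes with a probe set (a group of short probes for 1 transcript) of their own, 53 met this rule: 31 carriers, 7 Tomm genes and 15 Timm genes. They are read by 106 probe sets, and each gene is given by the probe set with the highest mean over all arrays. Each of 20 mice gave skeletal muscle RNA for 1 Affymetrix 3' expression array. The mice form 4 groups of 5: trained transgenic mice (TG trained), untrained transgenic mice (TG untrained), trained wild-type mice (WT trained) and untrained wild-type mice (WT untrained). The series asks how endurance training acts in mice that over-express MHC-I, an abbreviation its labels do not spell out. The promoter that drives the transgene, the line, the muscle, the age and sex of the mice and the training protocol are not stated in the labels. All that they say of the replicates is that each array is a separate mouse.

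Values are intensities on a linear scale, already brought to a common level, with array medians between 156 and 175. The arrays hold 21868 to 22686 probe set values each, and the most empty cells are on the arrays of mice wtt-137 (822) and TGT-133 (386). All 10 fast and general skeletal muscle markers were bright, with summed intensities of 143900 to 150900 over all mice, which fits the labelled tissue. Differences are given on the log2 scale after adding 66.7 to each intensity, so changes of dim genes are understated, and a gene is called where limma's p, adjusted over all 13576 probe sets bright enough to test, is under 0.05. Of the 53 genes, 48 were bright enough: 27 carriers, 7 Tomm and 14 Timm genes. Slc25a17, Slc25a23, Slc25a24, Slc25a2 and Timm8a2 were not, with mean intensities of 112, 93.1, 41.7, 55.6 and 20.2 against a minimum of about 126.

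Mitochondria make few of their own proteins and take up the rest, and nearly all of their metabolites, through these families. Most carriers of the Slc25a family sit in the inner membrane, where they exchange ADP for ATP or move phosphate, amino acids, acylcarnitines, iron and cofactors. Among the exceptions, Slc25a46 lies in the outer membrane and Slc25a17 in peroxisomes. Precursor proteins enter through the TOM complex of the outer membrane. Those with a cleavable presequence pass on through the TIM23 complex, pulled in by a motor that Timm44 tethers to the channel. Carrier proteins themselves are escorted by small Timm chaperones and inserted by the TIM22 complex. In muscle the carriers feed oxidative phosphorylation, and endurance training is known to raise the mitochondrial content of the tissue.

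Few of these genes changed. With training, averaged over the genotypes, Timm44 and Timmdc1 rose. In transgenic mice, averaged over training, Slc25a14 and Slc25a26 were higher and Timm8a1 and Timm10 lower than in wild-type mice. The share called was 4.17% for training (background 4.99% of all tested probe sets) and 8.33% for the transgene (background 1.23%). The calls are not equally firm. Over 20 fits that each left out 1 mouse, Timm44 and Slc25a14 were called in 20, Timmdc1 in 18, Slc25a26 in 9, Timm10 in 5 and Timm8a1 in 4. The RefSeq promoter windows (assembly GRCm38.p6, 250 bases before to 50 after the start) of the 5 of these 6 genes that have one in the table used are shown because they are the upstream regions of the genes that moved. Slc25a14 has 3 annotated starts, of which the first is printed. Capitals mark AAGGTCA, the core letters of the site for the estrogen-related receptors, CCGGAAGT, a site of ETS factors such as GABP (ACTTCCGG when read from the other strand), and CACGTG, an E box.
Timm44, chr8:4275856-4276155, minus strand: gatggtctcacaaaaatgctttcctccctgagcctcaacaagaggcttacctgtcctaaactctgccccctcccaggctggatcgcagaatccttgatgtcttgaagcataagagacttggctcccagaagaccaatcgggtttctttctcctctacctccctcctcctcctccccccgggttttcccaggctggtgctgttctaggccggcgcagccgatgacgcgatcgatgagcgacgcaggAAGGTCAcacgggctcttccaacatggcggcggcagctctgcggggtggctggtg
Timmdc1, chr16:38522614-38522913, minus strand: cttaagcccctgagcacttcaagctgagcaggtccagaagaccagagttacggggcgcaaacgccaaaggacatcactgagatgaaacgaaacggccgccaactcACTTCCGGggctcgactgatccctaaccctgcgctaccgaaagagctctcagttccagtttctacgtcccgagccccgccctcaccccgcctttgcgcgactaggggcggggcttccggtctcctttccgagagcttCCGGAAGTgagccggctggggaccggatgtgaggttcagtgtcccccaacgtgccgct
Slc25a14, chrX:48623198-48623497, plus strand: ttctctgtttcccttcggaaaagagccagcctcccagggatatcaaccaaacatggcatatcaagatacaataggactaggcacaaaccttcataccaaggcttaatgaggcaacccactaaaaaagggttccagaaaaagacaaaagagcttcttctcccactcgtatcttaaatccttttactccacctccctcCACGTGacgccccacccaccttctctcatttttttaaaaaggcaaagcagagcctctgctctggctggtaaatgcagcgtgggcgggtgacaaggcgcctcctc
Timm8a1, chrX:134541621-134541920, minus strand: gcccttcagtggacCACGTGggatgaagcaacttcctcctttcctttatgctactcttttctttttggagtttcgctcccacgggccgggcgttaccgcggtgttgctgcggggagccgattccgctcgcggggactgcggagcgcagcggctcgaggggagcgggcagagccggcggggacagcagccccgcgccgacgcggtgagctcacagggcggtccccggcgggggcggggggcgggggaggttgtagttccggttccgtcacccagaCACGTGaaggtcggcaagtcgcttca
Timm10, chr2:84826771-84827070, plus strand: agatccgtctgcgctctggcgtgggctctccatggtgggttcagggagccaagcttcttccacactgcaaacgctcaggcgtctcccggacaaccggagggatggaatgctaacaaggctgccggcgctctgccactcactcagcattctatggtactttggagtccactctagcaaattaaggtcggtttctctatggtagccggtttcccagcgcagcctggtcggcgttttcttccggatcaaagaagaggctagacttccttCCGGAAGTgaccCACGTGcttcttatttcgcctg

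The Timm44 window holds AAGGTCA at bases 246 to 252 of the 300, at the start. Timmdc1 holds CCGGAAGT at bases 243 to 250 and its reverse complement at bases 106 to 113, and Timm10 holds it at bases 267 to 274, after the start, followed by an E box at bases 279 to 284. Timm8a1 has E boxes at bases 15 to 20 and 275 to 280, and Slc25a14 has one at bases 197 to 202. Among the 44 carrier and import genes with a window, 12 motifs were searched on both strands. CCGGAAGT was in 8 of them (18.2%, against 4.31% of all 27025 genes with a window), namely Slc25a20, Timm8a2, Timm10, Timm10b, Timm23, Timm29, Timmdc1 and Tomm70a. The longer ACCGGAAGT, which contains it, was in 1 (2.27%, against 1.21%). CACGTG was in 8 (18.2%, against 8.09%) and AAGGTCA in 3 (6.82%, against 5.38%), one of which, Timm8b, holds the longer TCAAGGTCA (2.27%, against 0.466%).

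For the factor NRF1 the search used TGCGCA, found in 7 genes (15.9%, against 8.79%), and 2 longer motifs that do not contain these letters. An open core was found in 4 (9.09%, against 7%), and the full palindrome, which fills that core, in 0 (against 1.07%). The YY1 motif AAGATGGC was in 2 (4.55%, against 3.19%), Slc25a3 and Timm50, and its longer form, which contains it, in 1 (2.27%, against 0.755%). CCAAT was in 19 (43.2%, against 41.1%) and the cyclic AMP response element TGACGTCA in 2 (4.55%, against 2.03%), Slc25a25 and Slc25a36. A match states only that the letters are in the window.

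**Figure D1:**
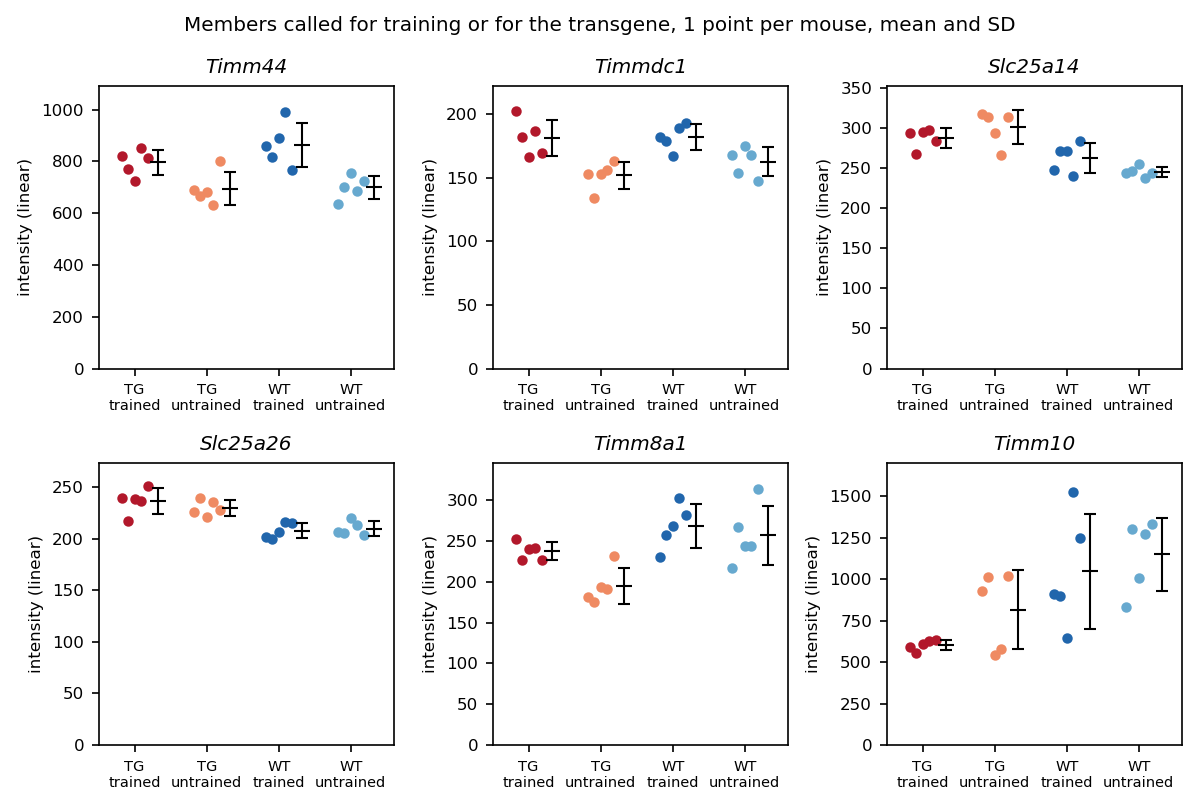
Intensity (linear scale) of the 6 called genes in each mouse, with TG trained, TG untrained, WT trained and WT untrained mice from left to right. Points are mice, and the bars beside them are the mean and SD of 5 mice. Timm44 and Timmdc1 stand higher in the trained groups, Slc25a14 and Slc25a26 higher in the transgenic groups, and the 5 TG trained mice lie close together in Timm10, between 554.5 and 632.

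Training was the first comparison. With the difference averaged over the genotypes, 2 of the 48 tested genes were called, both higher (4.17%), against a background of 4.99% of all tested probe sets called in either direction, 2.41% called higher and 2.59% called lower. Their share is near the background. The unadjusted p was under 0.05 for 14 of the 48, against 2806 of all 13576 tested probe sets. The median difference was 0.064 log2, against 0.002 over all tested probe sets, and 35 of 48 genes (72.9%) lay above 0, against 50.7%. Single differences were small: 44 of 48 were under 0.2 log2 in size, as were 12164 of all 13576 tested probe sets. Those of the 48 ran from -0.29 to 0.37. By family the medians were 0.051 for the carriers (20 of 27 above 0), 0.086 for the Tomm genes (5 of 7) and 0.099 for the Timm genes (10 of 14).

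Timm44, the peripheral subunit that binds the mitochondrial Hsp70 motor to the TIM23 channel, rose with training. Its intensity was 823, 771, 725, 851 and 812 in TG trained mice, against 689, 666, 683, 633 and 802 in TG untrained mice. In wild-type mice it was 859, 816, 891, 992 and 767 in the trained group, against 637, 702, 757, 684 and 724 in the untrained group. Every WT trained mouse lay above every WT untrained mouse, while in transgenic mice TGUT-147 overlapped the trained group. The averaged difference was 0.23 ± 0.05 log2 (SE, 95% interval 0.12 to 0.34), or 1.17-fold (adjusted p = 0.0174). It was called in all 20 fits that left out 1 mouse (adjusted p 0.0102 to 0.0401), and the gene's other 2 probe sets were called as well, at 0.23 (adjusted p = 0.0163) and 0.14 (adjusted p = 0.0499). The 3 probe sets read the same RNA, so they are not independent.

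Timmdc1 carries a Timm symbol for its sequence likeness, but its product is an assembly factor of respiratory complex I. It too rose with training. In TG trained mice it stood at 202, 182, 166, 187 and 170, against 153, 134.1, 153, 156 and 163 in TG untrained mice, with no overlap. WT trained mice had 182, 179, 167, 189 and 193, against 168, 154, 175, 168 and 147.2 in WT untrained mice, where the groups overlap. The averaged difference was 0.15 ± 0.035 log2 (SE, 95% interval 0.08 to 0.22), or 1.11-fold (adjusted p = 0.0225). The call was lost narrowly without TGT-128 (adjusted p = 0.0505) or WTUT-135 (0.0503).

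The rest of the TIM23 complex lay above 0 in the averaged training difference for 3 of its other 4 subunits, with no call. Timm17a, a channel subunit, had intensities of 1579 to 1889 (median 1822) in TG trained mice, against 1437 to 1760 (median 1656) in TG untrained mice. WT trained mice had 1668 to 2180 (median 1778), against 1435 to 1779 (median 1628) in WT untrained mice. Its difference was 0.15 log2 (95% interval 0.03 to 0.27, adjusted p = 0.122). Timm23, which forms the channel with it, differed by 0.11 (-0.02 to 0.23, adjusted p = 0.318), and the presequence receptor Timm50 by 0.12 (0.00 to 0.23, adjusted p = 0.22). Timm17b, the second Timm17 form, differed by -0.002 (-0.10 to 0.10), and its probe sets disagree in sign.

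In the outer membrane no Tomm gene was called for training. Tomm22, the central receptor that organises the TOM complex, came nearest. It stood at 480, 437, 427, 539 and 500 in TG trained mice, against 420, 405, 494, 369 and 485 in TG untrained mice. WT trained mice had 515, 444, 524, 504 and 510, against 408, 368, 464, 400 and 477 in WT untrained mice. The groups overlap in both genotypes, and the averaged difference was 0.165 ± 0.06 log2 (SE; 95% interval 0.05 to 0.28, adjusted p = 0.0967). The pore-forming Tomm40 differed by 0.10 (0.02 to 0.18, adjusted p = 0.152) with the cell of mouse wtt-137 empty, so on 19 of the 20 arrays. Tomm70a, a receptor for carrier precursors, differed by 0.09 (0.00 to 0.17, adjusted p = 0.23), and the presequence receptor Tomm20 by -0.02 (-0.16 to 0.12, adjusted p = 0.911). For both of them the probe sets do not share a sign.

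Among the TIM22 complex and the small Timm chaperones, 5 of 8 tested genes lay above 0 for training and none was called. Timm22, the insertion pore for carriers, differed by 0.10 log2 (0.00 to 0.20, adjusted p = 0.244). Of the chaperone pair Timm9 and Timm10, which shields carrier precursors between the membranes, Timm9 differed by -0.12 (-0.22 to -0.02, adjusted p = 0.152) and Timm10 by -0.26 (-0.55 to 0.03, adjusted p = 0.312). In the second pair, Timm8a1 differed by 0.14 (0.03 to 0.25, adjusted p = 0.128) and Timm13 by 0.10 (-0.01 to 0.21, adjusted p = 0.309). Timm8b differed by 0.015 (-0.10 to 0.13).

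No carrier of the 27 tested was called for training. Slc25a4, the ADP/ATP carrier form of heart and skeletal muscle, stood at 11350, 11120, 10050, 10850 and 10790 in TG trained mice, against 10600, 9851, 10670, 10250 and 10280 in TG untrained mice. In WT trained mice it stood at 10780, 11210, 10570, 10600 and 10160, against 9917, 10080, 10490, 9761 and 9948 in WT untrained mice. The groups overlap, and the spread is narrow: the difference of 0.08 ± 0.025 log2 (SE, 95% interval 0.02 to 0.13) corresponds to an adjusted p of 0.078. Slc25a3, the phosphate carrier, averaged 7937 ± 451 and 8024 ± 188 in TG and WT trained mice, against 7506 ± 240 and 7684 ± 104 in TG and WT untrained mice (SD, n = 5 each). Its difference was 0.07 ± 0.03 (95% interval 0.01 to 0.13, adjusted p = 0.126). Slc25a5, the ADP/ATP carrier form of many other tissues, differed by 0.10 (-0.11 to 0.31, adjusted p = 0.655), read by a probe set that may also bind other transcripts. Slc25a20, the carnitine-acylcarnitine carrier that brings fatty acids in for oxidation, differed by -0.02 (-0.26 to 0.21, adjusted p = 0.945). It and the 6 other tested carriers of fuels and amino acids ran from -0.07 to 0.07: the dicarboxylate carrier Slc25a10, the glutamate carrier Slc25a22, the ornithine carrier Slc25a15, the basic amino acid carrier Slc25a29, the glycine carrier Slc25a38 and the branched-chain amino acid carrier Slc25a44. None of the probe sets used had an unadjusted p under 0.05, but a dimmer one of Slc25a44 read -0.14 (limma adjusted p = 0.157, unadjusted under 0.05) where the one used read 0.045. The 8 uncoupling-like, outer membrane and less well known carriers ran from -0.03 to 0.13.

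The largest training difference of any carrier by size was that of Slc25a39, a glutathione carrier. It stood at 1190, 884, 1357, 1502 and 1084 in TG trained mice, against 642, 708, 973, 782 and 959 in TG untrained mice. WT trained mice had 1099, 1028, 1418, 1080 and 1056, against 645, 941, 968, 1105 and 1243 in WT untrained mice. The groups overlap in both genotypes. The difference was 0.37 ± 0.11 log2 (SE, 95% interval 0.14 to 0.60), 1.29-fold, with an adjusted p of 0.0571. A second, dimmer probe set of Slc25a39 was called, at 0.27 ± 0.05 (adjusted p = 0.0107), and the remaining one read 0.35 (adjusted p = 0.0651). The probe set used and the remaining one are of a type that may also bind other transcripts, which the called one is not. Whether this gene counts as called thus rests on the choice of probe set. Timm10b, a small Timm protein of the TIM22 complex, is alike in this: the probe set used read 0.03 (adjusted p = 0.846) and a dimmer one 0.16 (adjusted p = 0.0462).

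Of the iron carriers, Slc25a28 (mitoferrin of most tissues) had lower means in trained mice of both genotypes, but it did not pass the test. It had 505, 519, 440, 450 and 486 in TG trained mice, against 744, 554.6, 463, 509 and 674 in TG untrained mice. WT trained mice had 577, 531, 442, 737 and 683, against 669, 1000, 640, 701 and 785 in WT untrained mice. The groups overlap, and the difference was -0.29 ± 0.09 log2 (95% interval -0.48 to -0.09, adjusted p = 0.0816). Slc25a37, the mitoferrin of red cell precursors, differed by 0.08 (-0.03 to 0.20, adjusted p = 0.412).

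**Figure D2:**
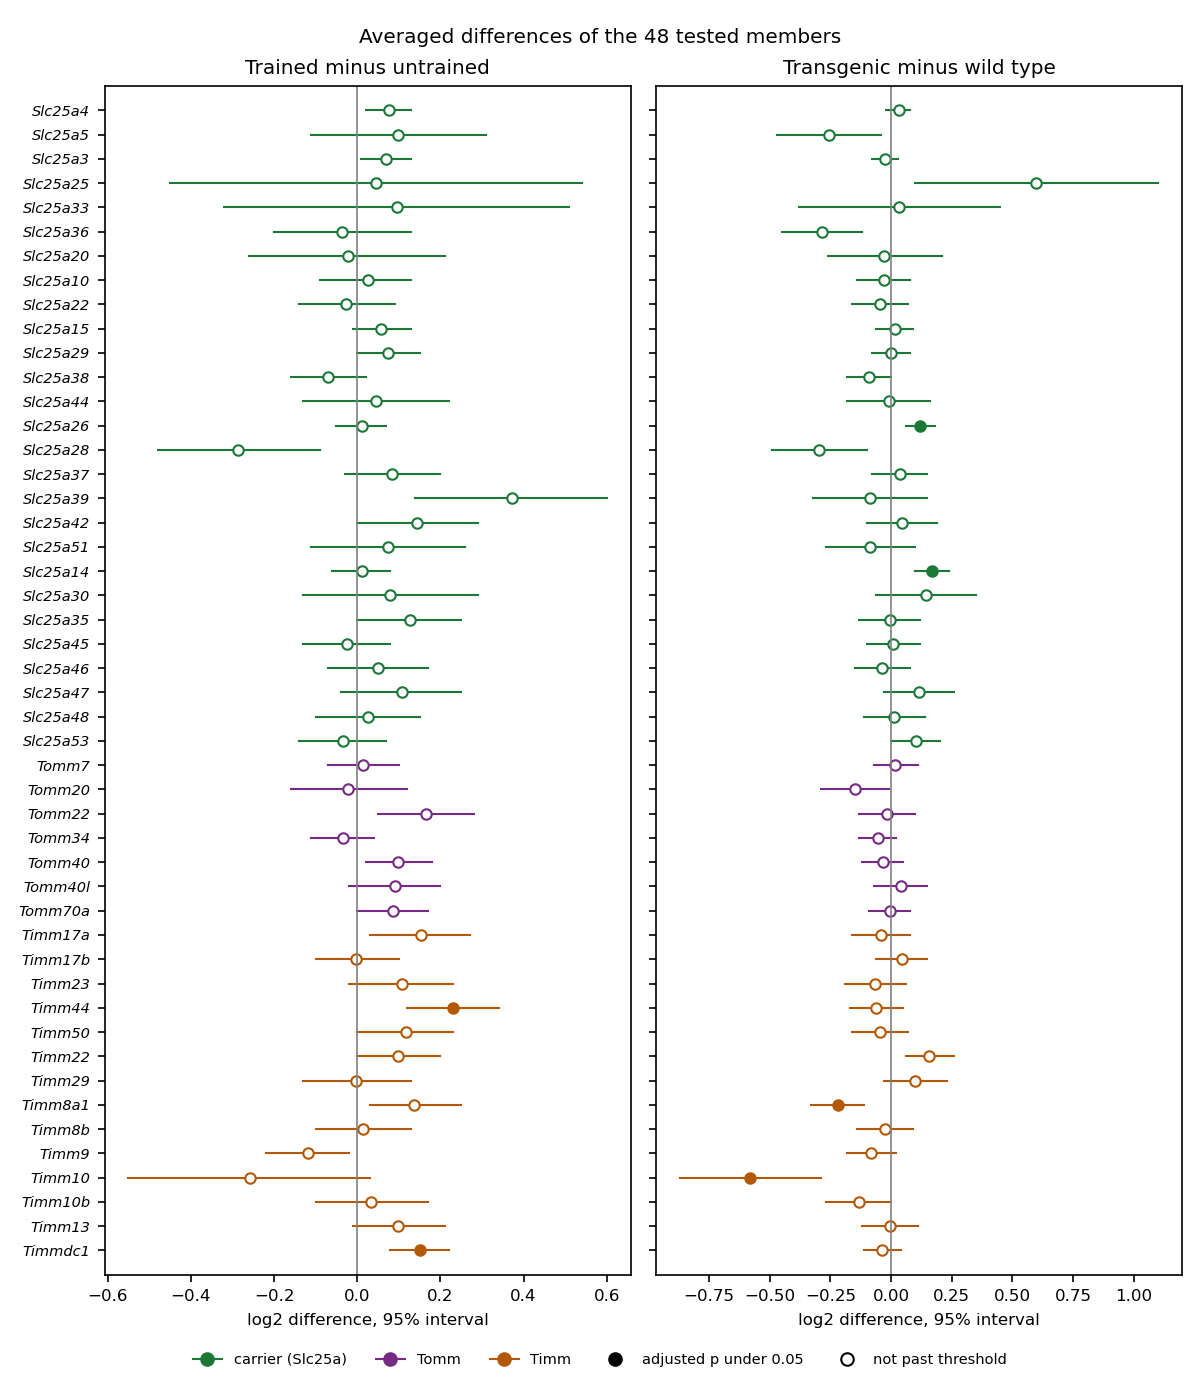
Difference on the log2 scale (x axis) of the 48 tested genes (y axis) with its 95% interval, trained minus untrained on the left and transgenic minus wild type on the right. Green marks carriers, purple Tomm genes and orange Timm genes. Filled points passed an adjusted p of 0.05: Timm44 and Timmdc1 on the left, and Slc25a26, Slc25a14, Timm8a1 and Timm10 on the right.

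Within a single genotype no carrier or import gene was called for training. In transgenic mice (0 of 48, background 0.309%) the median difference was 0.079 log2. The unadjusted p was under 0.05 for 9 genes, against 2362 of all 13576 tested probe sets. Timmdc1 had the smallest p, at 0.18 ± 0.05 (adjusted p = 0.0802), followed by Slc25a39 at 0.53 ± 0.16 (adjusted p = 0.0964) and Timm8a1 at 0.22 (adjusted p = 0.126). In wild-type mice (0 of 48, background 0%) the median was 0.044. There the unadjusted p was under 0.05 for 6 genes, against 1069 of all 13576 tested probe sets. Timm44 led at 0.28 ± 0.07 (adjusted p = 0.244), then Tomm22 at 0.21 (adjusted p = 0.476) and Slc25a4 at 0.09 (adjusted p = 0.52). Trained and untrained groups did not overlap for 1 gene in transgenic mice (Timmdc1, background 3.23%) and for 1 in wild-type mice (Timm44, background 2.84%). Over both genotypes, no gene's trained mice were clear of all its untrained mice (background 0.081%).

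The test of whether training acted differently in the genotypes also called 0 of 48 (background 0%, adjusted p of 1 for each). The difference of the training differences was taken as transgenic minus wild type. Its unadjusted p was under 0.05 for 1 gene, against 395 of all 13576 tested probe sets. This gene is Slc25a42, which carries coenzyme A into mitochondria. It stood at 505, 569, 500, 572 and 627 in TG trained mice, against 394, 390, 475, 404 and 543 in TG untrained mice. WT trained mice had 549, 473, 483, 474 and 402, against 488, 382, 528, 554 and 452 in WT untrained mice, and the groups overlap in both genotypes. The interaction was 0.30 ± 0.14 log2 (95% interval 0.01 to 0.59). Slc25a14 (-0.13, interval -0.27 to 0.01) and Slc25a36 (0.29, interval -0.04 to 0.62) came next.

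Other mitochondrial gene groups give the scale of these differences. For training, the background was 4.99% of all tested probe sets called, 2.41% of them higher and 2.59% lower. Of 39 Nduf genes, the subunits and assembly factors of complex I, 17 rose with training (43.6%), 39 of 39 lay above 0 and the median was 0.149 log2. Of 74 Mrpl and Mrps genes, which encode mitochondrial ribosomal proteins, 19 rose (25.7%), 69 lay above 0 and the median was 0.129. The carrier and import genes had 4.17% called and a median of 0.064, and the difference between the lists was not tested. Of 25 import genes with other names, 2 rose (8%): Samm50, the core of the outer membrane sorting machinery, by 0.20 ± 0.05 (adjusted p = 0.0313) and Mtx2, its partner metaxin, by 0.22 ± 0.06 (adjusted p = 0.0321). Their median was 0.078. The matrix chaperones downstream of import were not called, with differences of 0.13 for Hspa9, the Hsp70 that Timm44 binds (adjusted p = 0.405), 0.18 for Hspd1 (adjusted p = 0.185) and 0.21 for Hspe1 (adjusted p = 0.114).

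Among 11 tested inner membrane transporters with other names, of 13 on the array, 1 rose and 1 fell with training (18.2% called, background 4.99%). Letm1, an ion exchanger of the inner membrane, rose by 0.35 ± 0.07 log2 (1.27-fold, adjusted p = 0.00926). Ucp3, the uncoupling protein of muscle and a member of the carrier superfamily under another symbol, fell by 0.54 on the log2 scale (1.45-fold, SE 0.15, adjusted p = 0.047). Its intensity was 852, 1644, 1028, 973 and 1399 in TG trained mice, against 2311, 1646, 1084, 2534 and 2380 in TG untrained mice. In WT trained mice it was 1486, 1601, 858, 1338 and 1116, against 1418, 1852, 1565, 1430 and 2014 in WT untrained mice. The groups overlap in both genotypes.

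**Figure D3:**
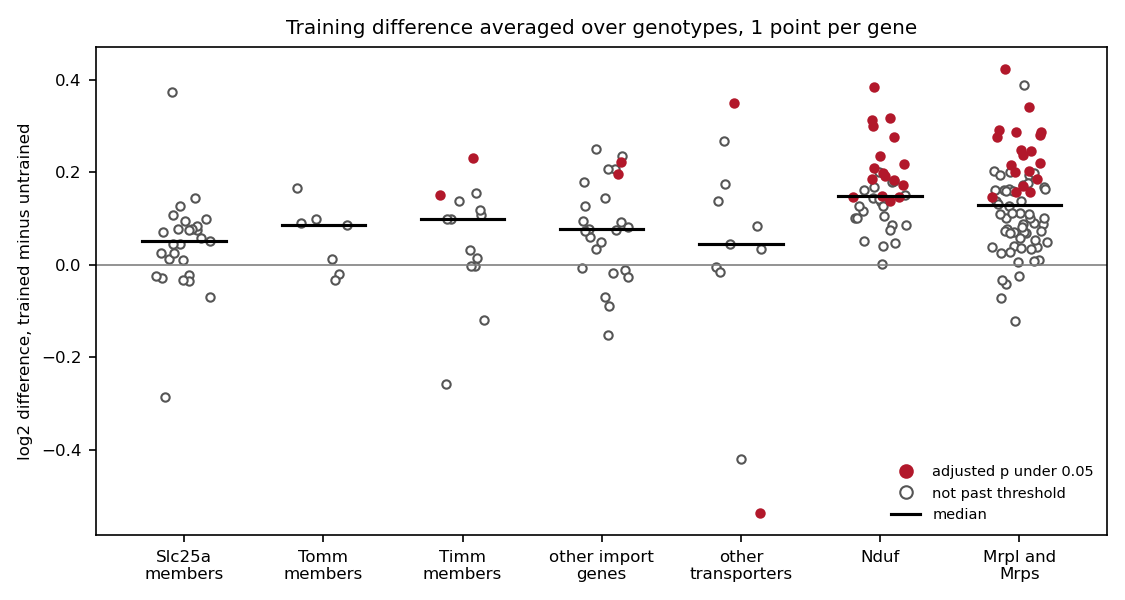
Training difference averaged over the genotypes (y axis, log2, trained minus untrained) for each tested gene of the Slc25a, Tomm and Timm families and of the 4 lists beside them (x axis). Red points passed an adjusted p of 0.05 and bars are list medians. The Slc25a, Tomm and Timm medians of 0.051, 0.086 and 0.099 lie under the Nduf and Mrpl and Mrps medians of 0.149 and 0.129.

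Few marker genes passed the test for training, against a background of 4.99% of all tested probe sets called. Of 5 fibroblast markers, 1 rose, Col3a1, a collagen chain, by 1.02 ± 0.28 log2 (adjusted p = 0.04), and the median of the 5 was 0.27. None was at 0, and the summed intensity of the list was 5357 to 7731 in TG trained and 5353 to 6939 in WT trained mice, against 5913 to 7189 in TG untrained and 3816 to 6342 in WT untrained mice. The other fibroblast markers were not called. Col1a2, Col1a1 and Pdgfra read 0.32, 0.27 and 0.11, while Dcn, the brightest of the list, read -0.11 (limma adjusted p = 0.573). Of 10 skeletal muscle markers, 1 fell, Ryr1, the calcium release channel, by 0.10 on the log2 scale (adjusted p = 0.0206). Col3a1 and Ryr1 are named because they passed, after their values were seen. Their part in the training differences of Timm44 and Timmdc1 was not tested. In bulk muscle, fewer cells or fibres of a type and less RNA per cell cannot be told apart.

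The transgene was the second comparison. Averaged over training, 4 of the 48 tested genes were called (8.33%), against a background of 1.23%. Slc25a14 and Slc25a26 were higher in transgenic mice (background 0.324% called higher), and Timm8a1 and Timm10 were lower (background 0.906%). No gene separated all transgenic from all wild-type mice (background 0.0442%). An unadjusted p under 0.05 was found for 10 genes, against 2355 of all 13576 tested probe sets. The median difference was -0.021 log2, against 0.004 over all tested probe sets, and 19 of 48 genes lay above 0. In size, 42 of 48 differences were under 0.2 log2, as were 12270 of all 13576 tested probe sets. The range of the 48 was -0.58 to 0.60. No gene was called in the 4 lists set beside them, whose medians were -0.068 for the other import genes, -0.043 for the other transporters, -0.038 for the Nduf genes and -0.037 for the Mrpl and Mrps genes.

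Slc25a14, a brain mitochondrial carrier protein related to the uncoupling proteins, was higher in transgenic muscle. It stood at 293, 267, 294, 298 and 283 in TG trained mice, against 247, 271, 271, 239 and 283 in WT trained mice, where the groups overlap. TG untrained mice had 317, 313, 294, 266 and 313, against 244, 247, 255, 237 and 243 in WT untrained mice, with no overlap. The averaged difference was 0.17 ± 0.035 log2 (SE, 95% interval 0.10 to 0.24), 1.13-fold (adjusted p = 0.0191). Leaving out any 1 mouse kept the call (adjusted p 0.00941 to 0.0444). The gene has 1 probe set.

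Slc25a26 imports S-adenosylmethionine, the methyl donor, into the matrix. Its values were 239, 217, 238, 236 and 251 in TG trained mice, against 202, 200, 206, 216 and 215 in WT trained mice. TG untrained mice had 225, 239, 221, 235 and 227, against 206, 205, 220, 213 and 203 in WT untrained mice. Transgenic and wild-type mice overlapped in neither training state, but only narrowly so. The lowest TG trained mouse had 216.5 and the highest WT trained mouse 215.9. The lowest TG untrained mouse had 220.9 and the highest WT untrained mouse 220.2. Over both training states the genotypes overlap. The difference was 0.12 ± 0.03 log2 (SE, 95% interval 0.06 to 0.18), 1.09-fold (adjusted p = 0.0346). This gene had the smallest spread between mice of the same group among the 48, with an SD of 0.0439 log2. The probe set may also bind other transcripts, and the gene's other probe set read 0.05 ± 0.04 (adjusted p = 0.521). The call held in 9 of 20 fits without 1 mouse (adjusted p 0.0221 to 0.0746).

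Timm8a1, whose human counterpart is mutated in a deafness and dystonia syndrome, encodes a small chaperone of the space between the membranes. It was lower in transgenic mice: 252, 227, 240, 242 and 227 in TG trained mice, against 231, 257, 268, 303 and 282 in WT trained mice. TG untrained mice had 181, 175, 194, 191 and 232, against 216, 267, 244, 244 and 313 in WT untrained mice. The trained groups overlap, and the untrained groups share only the range between WTUT-130 and TGUT-147. The gene fell by 0.22 on the log2 scale (SE 0.05, 95% interval -0.33 to -0.11), 1.17-fold (adjusted p = 0.0456), and its other probe set read -0.35 ± 0.09 (adjusted p = 0.0572). This call held in only 4 of 20 fits without 1 mouse, those without TGUT-147, WTT-129, wtt-137 or WTUT-130 (adjusted p 0.0155 to 0.0979 over the 20).

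Timm10, a small chaperone that acts in a complex with Timm9, was the called gene with the widest spread. TG trained mice had 593, 554.5, 612, 630 and 632, all below the 909, 898, 647, 1528 and 1251 of WT trained mice. TG untrained mice had 931, 1014, 540, 580 and 1021, against 833, 1300, 1009, 1272 and 1334 in WT untrained mice, where the groups overlap. Of the 5 TG untrained mice, TGUT-145 and TGUT-146 lie at the low end, beside the TG trained mice. The gene fell by 0.58 on the log2 scale (SE 0.14, 95% interval -0.87 to -0.29; adjusted p = 0.0467). It was called in 5 of 20 fits without 1 mouse, those without TGUT-131, TGUT-139, TGUT-147, wtt-137 or WTUT-130 (adjusted p 0.0122 to 0.0967 over the 20). Its partner Timm9 differed by -0.08 (-0.18 to 0.02, adjusted p = 0.375), and no other probe set reads Timm10. With arrays centred on their medians, Slc25a26, Timm8a1 and Timm10 missed the threshold (adjusted p of 0.0515, 0.0616 and 0.0551), and likewise with no filter on dim probe sets (0.0716, 0.0669 and 0.0642).

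The other subunits of the import machinery were not called for the transgene. By the probe sets used, Timm22 stood nearest, at 403 ± 23.2 and 376 ± 11.8 in TG trained and TG untrained mice, against 359 ± 34.0 and 328 ± 40.3 in WT trained and WT untrained mice (SD, n = 5 each). Its difference was 0.16 ± 0.05 log2 (adjusted p = 0.0953), and its dimmer probe set read 0.09 (limma adjusted p = 0.596). A dimmer probe set of Timm29 read 0.18 (limma adjusted p = 0.0719), where the one used read 0.10 (0.424). Tomm20 differed by -0.15 (-0.29 to -0.01, adjusted p = 0.271). Its other probe sets read -0.23, -0.225, -0.17 and, for the dimmest, 0.015, with no call. Timm44 differed by -0.06 (-0.17 to 0.05, adjusted p = 0.569). Of the remaining receptors and pores, Tomm22 differed by -0.015, Tomm40 by -0.03, Tomm70a by -0.004, Timm23 by -0.065, Timm17a by -0.04, Timm17b by 0.045 and Timm50 by -0.045, each with a 95% interval that holds 0. Timm8b differed by -0.03 and Timm13 by -0.005.

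Carriers of nucleotides and phosphate did not pass the test for the transgene either. Slc25a4 differed by 0.03 log2 (-0.02 to 0.08), and Slc25a3 by -0.03 (-0.08 to 0.03). For Slc25a5 the difference was -0.25 (-0.47 to -0.04, adjusted p = 0.207). Slc25a36, a pyrimidine nucleotide carrier, had 128.8, 150, 136.2, 156 and 105 in TG trained mice, against 149, 184, 129.5, 144.6 and 170 in WT trained mice. In TG untrained mice it had 101, 113, 153, 85.9 and 155, against 178, 197, 162, 149 and 247 in WT untrained mice. All groups overlap in both training states, and the difference was -0.28 ± 0.08 (adjusted p = 0.0763). Several of these values lie close to the minimum for testing of about 126.

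Slc25a25, the calcium-dependent ATP-Mg/phosphate carrier, had the largest transgene difference and the widest spread of all 48, an SD of 0.586 log2 within groups. It stood at 1702, 1424, 1806, 1803 and 1981 in TG trained mice, against 1070, 1286, 1092, 552 and 767 in WT trained mice, with no overlap. TG untrained mice had 723, 621, 2097, 3418 and 1450, against 1429, 791, 1493, 796 and 1124 in WT untrained mice, which lie within their range. The averaged difference was 0.60 ± 0.24 log2 (95% interval 0.10 to 1.10, adjusted p = 0.209). Slc25a33, another pyrimidine nucleotide carrier, came second in spread, with an SD of 0.483, and differed by 0.03 (-0.38 to 0.45). Among all 48 genes the median within-group SD was 0.12 log2, against 0.129 over all tested probe sets.

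The iron and fuel carriers were also not called for the transgene. Slc25a28 differed by -0.30 ± 0.09 log2 (95% interval -0.49 to -0.10, adjusted p = 0.116), Slc25a37 by 0.04 (-0.08 to 0.15) and Slc25a20 by -0.03 (-0.26 to 0.21). All 7 carriers of fuels and amino acids lay between -0.09 and 0.02, none with an unadjusted p under 0.05 for the probe set used. The same dimmer probe set of Slc25a44 read -0.16 (limma adjusted p = 0.169, unadjusted under 0.05), against -0.009. Beside Slc25a14, the uncoupling-like, outer membrane and less well known carriers had no call, and with it the 8 ran from -0.04 to 0.17.

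**Figure D4:**
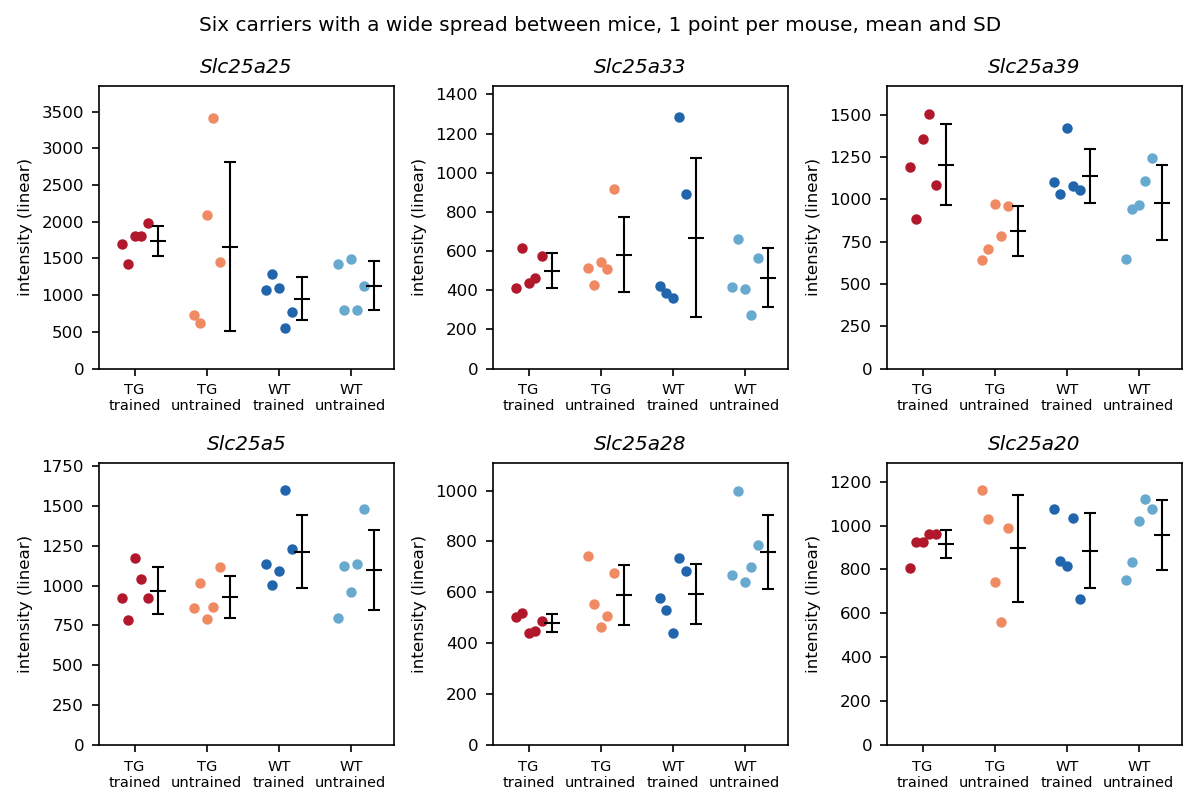
Intensity (linear scale) of 6 carriers with a wide spread between mice, with TG trained, TG untrained, WT trained and WT untrained mice from left to right. Points are mice, and bars are the mean and SD of 5 mice. In Slc25a25 the TG untrained mice run from 621 to 3418, while the TG trained mice lie between 1424 and 1981.

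Within one training state no gene was called for the transgene. In trained mice 0 of 48 were called (background 0.0516%). The unadjusted p was under 0.05 for 6 genes, against 1692 of all 13576 tested probe sets. Slc25a26 differed by 0.14 (adjusted p = 0.201), Timm10 by -0.68 ± 0.20 (adjusted p = 0.225) and Slc25a25 by 0.87 ± 0.34 (adjusted p = 0.312). These 3 were also the genes whose transgenic and wild-type groups did not overlap (background 2.55%). In untrained mice 0 of 48 were called (background 0.11% in either direction, 0.0147% higher). The unadjusted p was under 0.05 for 7 genes, against 1103 of all 13576 tested probe sets. Slc25a14 differed by 0.235 ± 0.05 (adjusted p = 0.0642), Timm8a1 by -0.31 (adjusted p = 0.131) and Slc25a36 by -0.43 (adjusted p = 0.18). There the groups of 2 genes did not overlap, Slc25a14 and Slc25a26 (background 1.44%).

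Slow fibre genes moved with the transgene, against a background of 0.906% of all tested probe sets called lower. Of 8 markers, 6 fell (Myl2, Tnni1, Atp2a2, Tnnt1, Myh7 and Myl3, named after their values were seen), and the median of the 8 was -1.39 log2. The summed intensity of the list was 5850 to 7861 in TG trained and 6224 to 9140 in TG untrained mice, against 10150 to 18890 in WT trained and 8251 to 21780 in WT untrained mice, and none was at 0. Of 5 endothelial markers, 1 fell, Cdh5, by 0.30 on the log2 scale (adjusted p = 0.0221). No marker of adipocytes, brown fat, red cell precursors, macrophages, heart or liver was called in either averaged comparison, with transgene medians of -0.26 for the adipocyte and -0.39 for the brown fat markers. Their part in the differences of Slc25a14, Slc25a26, Timm8a1 and Timm10 was not tested.

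Each array can also be given by 1 value for all tested genes. The mean deviation of the 48 genes from their own mean over arrays ran from -0.02 to 0.05 log2 in TG trained mice, with a median of 0.02, against -0.10 to 0.03 in TG untrained mice, with a median of -0.06. It ran from 0.01 to 0.06 in WT trained mice, with a median of 0.02, against -0.06 to 0.02 in WT untrained mice, with a median of 0. These values describe the arrays and were not tested. Of 21 genes with a second tested probe set, all probe sets shared a sign in 14 for training and in 13 for the transgene.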

How the data were processed

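The deposited values are intensities per probe set on a linear scale; the authors had already scaled the arrays, as read from the values, by a method the labels do not state. A free-text label calls every sample transgenic and trained and conflicts with the titles and source names, which set the groups. Symbols came from the platform's annotation; all 53 genes matched the RefSeq gene table. Probe sets with several genes were left out. Empty cells (0.385%) stayed missing, which touches 3 of the 53 genes, Slc25a10, Slc25a30 and Tomm40, all for wtt-137.

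A constant of 66.7 (20th percentile of all values) was added to each intensity before log2. The 64 controls were dropped, and probe sets under the 40th percentile of mean log2 value (7.59, about 126) were filtered. limma 3.58.1 in R 4.3.3 fitted 4 group means over 20 arrays with a variance trend (16 residual and 3.47 prior degrees of freedom), tested 7 contrasts two-sided, and adjusted by Benjamini-Hochberg over 13576 probe sets. Intervals are 95%. The code was tested on simulated data. For arrays no counting depth exists; their number limits the precision.

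Named were the called genes, the 3 with the smallest p where fewer than 5 were called, a fixed set of main carriers and import subunits, and called genes of the other import and transporter lists. Slc25a10, Slc25a15, Slc25a22, Slc25a29, Slc25a33, Slc25a38, Slc25a44, Timm10b, Timm29, Hspa9, Hspd1 and Hspe1 were named with values outside that rule, after their values were seen. The same holds for the markers Mb, Col1a1, Col1a2, Pdgfra and Dcn. The genes, lists and motifs were chosen with earlier results of these data known. Alternatives were quantile normalization, median centring, other constants, other filters, no variance trend, robust variance, array weights, the compared groups alone, other probe sets, and leaving out arrays.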

Additional observations from a re-analysis of the deposited data

Results flagged for a closer look

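Of 112 groups examined (28 named genes in 4 groups), 111 hold values of 5 mice and 1, Tomm40 in WT trained mice, of 4. In 6 groups of 5, a mouse stands apart from the others, its gap to the nearest of them exceeding Dixon's 95% critical value of 0.71 of the group's range. The group of 4 did not exceed its own critical value. Chance flags about 1 in 20 groups, so 6 of 112 is near that share. Slc25a20 was 807.8 in TG trained mouse TGT-128, below the 925.4 to 960.7 of the others. In WT trained mice, Slc25a39 was 1418 in wtt-137, above 1028 to 1099, Tomm22 was 443.6 in wtt-134, below 504.3 to 523.7, and Timm23 was 3386 in WTT-144, above 2790 to 2894. In WT untrained mice, Slc25a37 was 363.5 in WTUT-136, above 298 to 310.5, and Timm50 was 280.2 in WTUT-142, above 237.4 to 249.6. None of the 6 genes was called in either averaged comparison.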

How the results depend on the processing

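Counts of called genes moved where the following settings were changed. A count that did not move can still stand for other genes. Of 13 other settings for training averaged over the genotypes, Timm44 was tested in 12 and called in each of them. Timmdc1 was tested in 11 and called in each, and Slc25a39 was called in 4 of the 13. For training averaged over the genotypes, the 2 calls became 4 under quantile normalization (with Slc25a39 and Timm17a, background 6.25%) and 14 with array weights (12 higher and 2 lower, background 20%). Without probe sets that can bind several transcripts or splice forms, 1 of 29 genes was called, Timmdc1. The probe set of Timm44 is of that kind, so Timm44 was not tested there. For the transgene averaged over training, the 4 calls became 1, Slc25a14, with arrays centred on their medians or with no filter. With the second probe set of each gene, 0 of 21 genes were called. Slc25a14 and Timm10 have only 1 probe set each, so they were not among the 21. The 4 calls became 6, with Slc25a36 and Timm22, with array weights (background 4.54%). Timm8a1 and Timm10 had adjusted p of 0.0616 and 0.0551 with centred arrays. In single contrasts, where the count was 0, array weights gave 1 for training in wild-type mice (background 0.663%), 7 for training in transgenic mice (17.4%), 2 for the transgene in untrained mice (0.7%) and 3 in trained mice (6.63%). The second probe set gave 1 for training in transgenic mice, Slc25a39, and quantile normalization gave 1 for the transgene in untrained mice, Slc25a14. The cause was not tested. Leaving out 1 mouse at a time gave 1 to 6 calls for training, with 1 without TGT-128 or WTUT-135, 3 without TGT-132 or WTUT-142, 4 without TGT-133 or WTT-144 and 6 without TGUT-145. For the transgene it gave 1 to 7, with 7 without wtt-137, 5 without TGUT-147, 3 without TGUT-131 or WTUT-130, 2 without TGT-132, TGT-133, TGUT-139, TGUT-145, WTT-129, WTT-144, WTUT-136 or WTUT-138, and 1 without any other mouse. In the single contrasts these fits gave 0 to 0 for training in wild-type mice and for the interaction, and 0 to 1 for training in transgenic mice (1 without TGUT-145, Slc25a39) and for the transgene in untrained (1 without TGUT-146, Slc25a14) and trained mice (1 without wtt-137, Timm10). Without wtt-137 and TGT-133, which have the most empty cells, the counts were 3 for training (Slc25a3 added) and 5 for the transgene (Timm22 added). For fits that left out mice, and wherever else no background stands beside a count, the share over all probe sets is not given. Such counts cannot be told apart from a change over all probe sets. No difference of the 6 called genes changed sign under any setting run. The alternative of choosing probe sets by mean log2 value was added after seeing the data and gave the same 2 and 4 calls. No paired analysis was possible because each mouse has a number of its own and the groups share none.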
